A study of Mus musculus with 8 samples.

Results

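The genes examined were Hba-a1, Hbb-b1, Hbb-b2, Hbb-bh1, Alas2 and Slc4a1, transcripts of red cells and of the reticulocytes that precede them, measured in whole mouse lung. They were found by the gene symbol of each probe in the annotated matrix. Of the 6 genes 5 had a probe, with 1 probe for Hba-a1, 4 for Hbb-b1, 2 for Hbb-bh1 and 1 each for Alas2 and Slc4a1, and no probe carried the name Hbb-b2. The matrix held 20920 gene symbols in all. Together they make 9 probes of 41174 on the array and 8 of the 32653 tested.

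Lungs came from 4 wild-type and 4 Scgb3a2-transgenic male C57BL/6 mice, 8 to 10 weeks of age per the labels, none of which had been treated. Each mouse was labeled with Cy5 on its own Agilent whole mouse genome array, and a pool of whole mouse lung RNA labeled with Cy3 was the common reference. The transgene was a mouse Scgb3a2 cDNA under the human SP-C promoter, which is active in alveolar type II cells, and the line arose from a single founder. Lungs are called WT1 to WT4 and TG1 to TG4 after the replicate number of each genotype. Each of 4 slides held 1 wild-type and 1 transgenic array (WT3 with TG4, WT1 with TG1, WT2 with TG2, WT4 with TG3), and the first 2 slides were scanned on 1 day and the other two on another. On the arrays 32271 to 34720 probes were well above background in Cy5, 1.72% to 6.46% of spots were flagged, and 0 spots were saturated. Scgb3a2 itself had log2 ratios of 0.01, -0.39, 0.58 and -0.56 in WT1 to WT4 and 1.26, 0.47, 0.70 and 0.74 in TG1 to TG4. The groups overlapped at WT3, while the transgenic value was the higher on 4 of 4 slides and the difference was 0.88 (SE 0.24, unadjusted p = 0.00330 and adjusted p = 1.00 in limma). Lung identity was checked with 9 epithelial markers, which were well above background on all 8 arrays.

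Hemoglobin is a tetramer of alpha-type and beta-type globin chains, each of which holds a heme group that binds oxygen. Adult mouse red cells have no nucleus, and only the young ones, the reticulocytes, still hold much messenger RNA, of which globin transcripts are the bulk. A lung is filled with blood, so whole-lung RNA holds red cell transcripts in addition to those of the tissue. In such a bulk sample fewer cells of a type and less RNA per cell cannot be told apart. Hba-a1 encodes an adult alpha chain, Hbb-b1 and Hbb-b2 adult beta chains, and Hbb-bh1 a beta-type chain of the embryo. Alas2 encodes the erythroid enzyme of the first step of heme synthesis, and Slc4a1 encodes band 3, the anion exchanger of the red cell membrane.

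The symbols on the array are older than the present gene names. In RefSeq (GRCm38.p6) the transcript behind the 4 Hbb-b1 probes belongs to Hbb-bt, while Hbb-b1 and Hbb-b2 now name other transcripts. The beta-globin haplotype of C57BL/6 mice carries Hbb-bs and Hbb-bt, and Hbb-b1 and Hbb-b2 are the gene pair of another haplotype. The name Hbb-b1 is kept here as the matrix gives it. Adult alpha genes, like adult beta genes, have closely similar transcripts, so signal of Hba-a1 and Hba-a2, or of Hbb-bt and Hbb-bs, cannot be told apart with certainty on these probes.

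The bases before the gene starts are shown for Hba-a1, for Hbb-bt as the gene behind the Hbb-b1 probes, and for Alas2, since the ratios of Hba-a1 and Alas2 followed those of Hbb-b1 most closely across lungs and red cell promoters share short motifs. They are the 250 bases upstream of each start, from RefSeq (GRCm38.p6), namely chr11:32283422-32283671 on the plus strand for Hba-a1, chr7:103813924-103814173 on the minus strand for Hbb-bt and chrX:150547167-150547416 on the plus strand for Alas2. Capitals mark matches on either strand to GATAA (GATA factors), CCACCC (KLF factors), CCAAT (the CCAAT box) and ATATAA (the TATA box).
Hba-a1: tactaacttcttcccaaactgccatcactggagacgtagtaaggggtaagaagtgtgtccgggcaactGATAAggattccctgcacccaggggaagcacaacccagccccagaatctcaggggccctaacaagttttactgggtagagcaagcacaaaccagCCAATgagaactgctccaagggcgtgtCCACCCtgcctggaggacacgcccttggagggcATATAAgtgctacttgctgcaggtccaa
Hbb-bt: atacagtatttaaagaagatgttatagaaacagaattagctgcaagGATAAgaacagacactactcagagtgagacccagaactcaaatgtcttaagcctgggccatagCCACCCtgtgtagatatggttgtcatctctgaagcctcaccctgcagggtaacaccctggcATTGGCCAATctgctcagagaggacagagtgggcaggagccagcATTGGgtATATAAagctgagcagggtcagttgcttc
Alas2: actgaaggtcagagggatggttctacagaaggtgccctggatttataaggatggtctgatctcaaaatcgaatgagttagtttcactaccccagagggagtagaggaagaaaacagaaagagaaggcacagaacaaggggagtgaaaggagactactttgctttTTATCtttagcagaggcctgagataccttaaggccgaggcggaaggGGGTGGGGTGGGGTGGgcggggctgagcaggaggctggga
Every one of the 3 windows held 1 GATAA match, which 22.6% of 32851 promoter windows of this length held. CCACCC was found 1 time before Hba-a1, 1 time before Hbb-bt and 3 times before Alas2, as overlapping matches in a run of G bases, against 28.1% of all windows with at least 1. CCAAT stood 1 time before Hba-a1 and 3 times before Hbb-bt, and ATATAA 1 time before each of these globin genes, against 33.8% and 9.10% of all windows. Neither CCAAT nor ATATAA was matched in the Alas2 window. Hba-a2, the neighbor of Hba-a1, shared an identical run of 247 bases with it, whereas the longest identical run of Hbb-bt and Hbb-bs was 14 bases. These matches describe letters, and binding was not measured.

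The ratios of the adult globins varied more between lungs than those of nearly any other probe, with variation in both channels, and the order of lungs was not one of genotype. For Hba-a1 the log2 ratios of lung over pool were 0.86, 0.85, 1.47 and -0.09 in WT1 to WT4, and 0.36, 0.19 and 0.25 in TG1, TG3 and TG4. The Hba-a1 spot of TG2 was flagged as non-uniform in the Cy3 channel and has no value. WT3 was the highest and WT4 the lowest, so the transgenic lungs lay inside the wild-type range.

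Hbb-b1 had all 8 values on its brightest probe (probe 1), which were 0.84, 0.69, 1.68 and -0.22 in WT1 to WT4 and 0.47, 2.64, 0.06 and 0.34 in TG1 to TG4. TG2 was the highest lung, WT3 the second and WT4 the lowest, and the ratio of TG2 was 7.25-fold that of WT4. The wild-type mean was 0.75 ± 0.78 (SD, n = 4) and the transgenic mean 0.88 ± 1.19 (SD, n = 4). On probe 2 the values were 0.65, 0.65, 1.73 and -0.12 in the wild-type lungs and 0.26, 2.37, 0.19 and 0.23 in the transgenic lungs. Probe 3 gave 0.78, 0.52, 1.78 and 0.05, and 0.28, 1.95, 0.21 and 0.36. On all of these probes TG2 and WT3 stood above the other lungs and WT4 below, with groups that overlapped. Probe 4 gave 0.30, 1.50 and -0.09 in WT2 to WT4, its spot on WT1 being flagged, and 0.89, 1.75, 0.15 and 0.71 in TG1 to TG4. It shared the extremes of the other probes, with TG1 and TG4 nearer to the top.

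**Figure D1:**
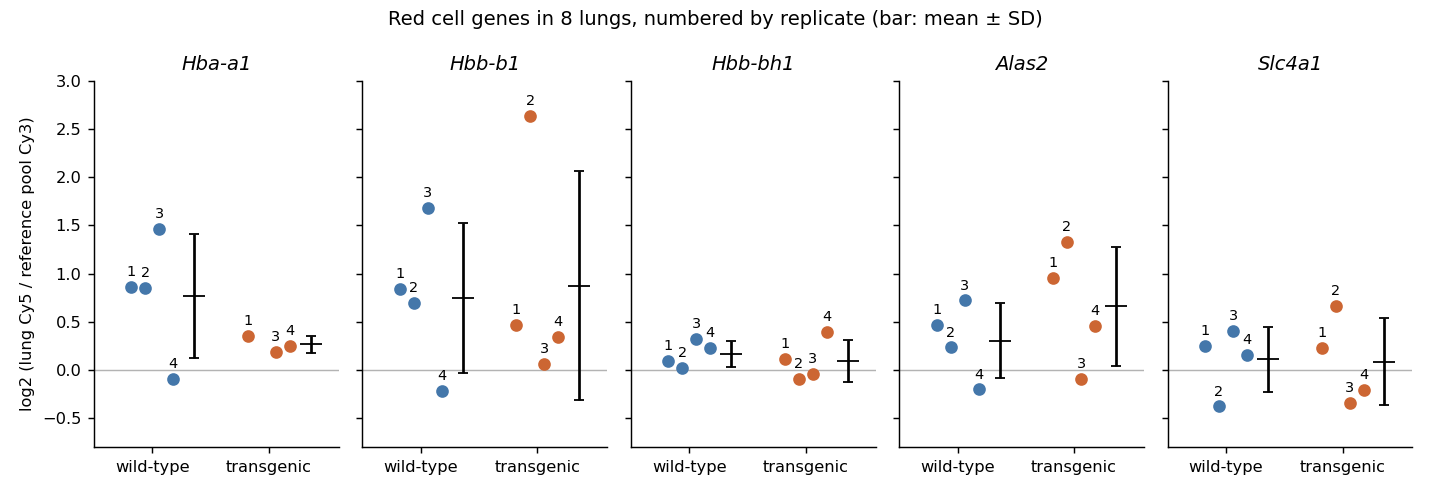
Log2 ratio of lung (Cy5) over the reference pool (Cy3) for 5 red cell genes, each by its brightest probe, in 4 wild-type (blue) and 4 transgenic (orange) lungs. Numbers on the points are replicates and bars give the mean ± SD, and Hba-a1 has no value for TG2. TG2 stands at 2.64 for Hbb-b1 while the other transgenic lungs lie between 0.06 and 0.47, and Hbb-bh1 stays between -0.09 and 0.39 in all lungs.

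The SD of the log2 ratio over the 8 lungs was 0.93 for Hbb-b1 probe 1, and 99.7% of the tested probes had a lower one. Probes 2 to 4 had SDs of 0.86, 0.73 and 0.69, and Hba-a1 had 0.53 over 7 lungs, against a median of 0.18 over all tested probes. Without TG2 the SD of probe 1 was 0.61. Alas2 had an SD of 0.52, above 99.0% of probes, and Slc4a1 one of 0.37, above 96.0%. Hbb-bh1 had 0.17, above 47.3%, and thus varied like a usual probe. These SDs hold the variation of the pool channel as well. In the normalized Cy5 intensity, which is the lung channel, the SD was 0.43 for Hbb-b1 probe 1 and 0.30 for Hba-a1, above 91.5% and 72.6% of the tested probes and against a median of 0.22. In Cy3, the same pool on every array, the SDs of these probes were larger, 0.56 and 0.38, above 99.0% and 95.4% of probes and against a median of 0.16. Probe 4 and Alas2 had SDs of 0.59 and 0.53 in Cy5 and of 0.19 and 0.32 in Cy3.

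As an average of the linear ratio over the lungs, each adult globin probe stood above the pool. The mean linear ratio was 1.56 for Hba-a1 and 2.17, 2.01, 1.89 and 1.85 for Hbb-b1 probes 1 to 4, against a median of 1.01 over all tested probes. It was 1.48 for Alas2, 1.10 for Slc4a1 and 1.10 for Hbb-bh1. Standing above the pool was not particular to the globins among bright probes. Mean log2 ratios in wild-type and transgenic lungs were 2.03 and 1.42 for Sftpc, 1.98 and 1.88 for Scgb1a1, and 0.51 and 0.51 for Fth1. Other bright probes lay nearer to the pool, with 0.18 and -0.09 for Ager and 0.15 and 0.09 for Ftl1. Per the methods every lung gave an equal share of RNA to the pool. No array had the dyes swapped, so a dye effect on these probes and a difference from the pool cannot be told apart.

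The 2 channels of the adult beta-globin spots were looked at apart, because the pool is the same RNA on every array. In Cy5, the background-subtracted signal of Hbb-b1 probe 1 was 72024, 111861, 99458 and 67477 in WT1 to WT4, and 51055, 140642, 67681 and 76847 in TG1 to TG4. In Cy3, the pool gave 39710, 56051, 41530 and 82395 on the wild-type arrays and 55869, 23644, 81848 and 52438 on the transgenic arrays. The array of TG2 thus had the highest lung signal and the lowest pool signal, and that of WT4 the highest pool signal. After normalization the Cy5 intensity of TG2 was 2.07-fold the median of the other 7 lungs, and its Cy3 intensity 0.482-fold, while its ratio was 4.50-fold the median ratio of those lungs. Probes 2 and 3 had 2.12-fold and 2.00-fold in Cy5 and 0.590-fold and 0.788-fold in Cy3. On probe 4 the Cy3 intensity of TG2 was 1.04-fold that of the others, and the Cy5 intensity 2.49-fold. Hba-a2, which is not among the 6 genes, had 2.67-fold in Cy5 on TG2. The lung channel of TG2 was therefore about 2 to 2.7 times the median of the other lungs on every adult globin probe with a value. WT3, the next highest, was closer, with a normalized log2 Cy5 intensity on probe 1 of 16.79 against 17.19 in TG2. On probes 1 to 3 a pool signal below the median of the other arrays widened the ratio.

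The flagged Hba-a1 spot on TG2 had the same shape, with the highest Cy5 signal of the 8 arrays, 113807 against 87932 for the next, and the lowest Cy3 signal, 20686 against 32911. Kept, it would give TG2 a log2 ratio of 2.53, above the 1.47 of WT3.

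Across arrays the normalized Cy5 and Cy3 intensities of a probe mostly rose together, with a median correlation of 0.65 over 29502 tested probes with 8 values, of which 8.24% were below 0. Those of Hbb-b1 probe 1 ran against each other, with r = -0.75 and rho = -0.57 (n = 8, exact permutation p = 0.0308 and 0.151, adjusted p = 0.308 and 0.715 over the 10 probes examined). Left without TG2 and WT3, r was 0.08, so on this probe the relation rested on these arrays. Probes 2 and 3 had r = -0.66 and -0.48 (n = 8, exact permutation p = 0.0764 and 0.232, adjusted p = 0.382 and 0.573), which turned to 0.39 and 0.56 without TG2 and WT3. Probe 4 went the other way. It had r = -0.40 and rho = -0.75 (n = 7, exact permutation p = 0.380 and 0.0663, adjusted p = 0.605 and 0.663), and r = -0.85 without TG2 and WT3. Hba-a1 went from r = -0.22 to -0.76 without TG1 and TG4, and Hba-a2 from 0.0019 to -0.76 without TG2 and TG4. Within scan days, as deviations from the mean of each day, r was -0.91, -0.95, -0.96 and -0.91 for probes 1 to 4. For these intensities the mean of the 2 channels was scaled to the same distribution on every array. That limits how far both channels of the brightest probes can rise together. In the background-subtracted signals on a log2 scale, flagged spots included, r was -0.67, -0.54, -0.32 and 0.09 for probes 1 to 4. The part that an opposite course of the pool channel has in the ratios was not tested.

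**Figure D2:**
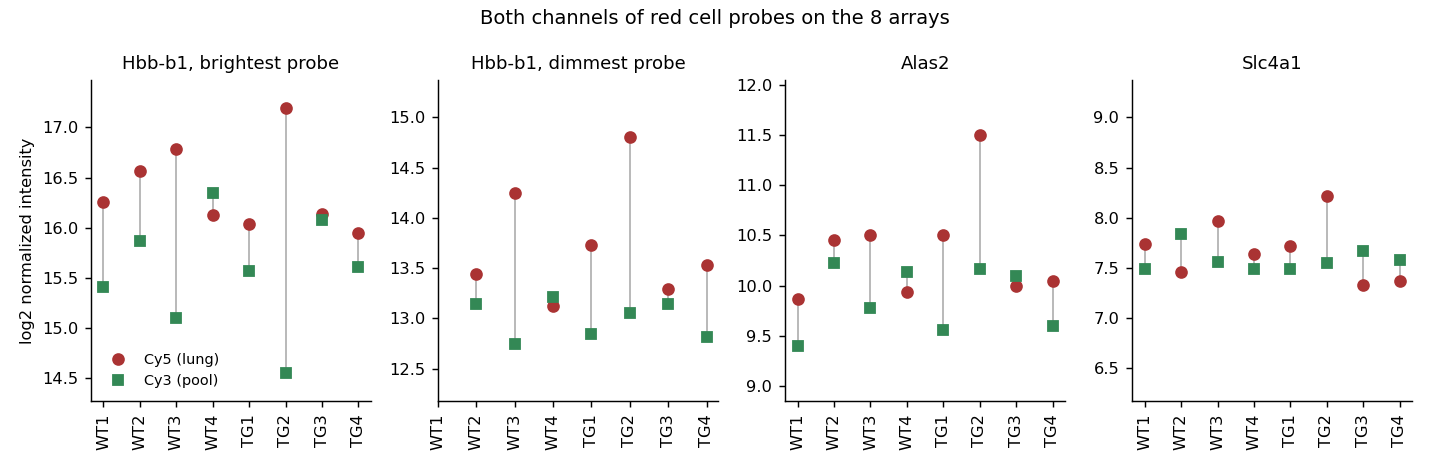
Normalized log2 intensity of lung RNA (Cy5, red circles) and of the reference pool (Cy3, green squares) on the 8 arrays for Hbb-b1 probe 1, Hbb-b1 probe 4, Alas2 and Slc4a1, with a gray line between the channels of an array. Each panel has its own y axis of the same height, and probe 4 has no value for WT1, whose spot was flagged. On TG2 the Hbb-b1 probe 1 pool signal is the lowest of the 8, whereas on probe 4 the pool signal of TG2 lies between 12.75 and 13.21 like those of the other arrays.

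Alas2 had log2 ratios of 0.47, 0.23, 0.72 and -0.20 in WT1 to WT4, and 0.95, 1.33, -0.10 and 0.45 in TG1 to TG4. TG2 was again the highest and WT4 the lowest lung, a 2.89-fold range, but TG1 came second rather than WT3. Its Cy5 intensity on TG2 was 2.72-fold the median of the other lungs. The pool channel was not low on that array, where its background-subtracted signal was 1175 between 481.5 and 1482 on the others.

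Slc4a1 had 0.25, -0.38, 0.41 and 0.16 in the wild-type lungs and 0.22, 0.66, -0.34 and -0.21 in the transgenic lungs. TG2 was the highest here too and WT3 the second, while WT2 and TG3 were the lowest, a 2.06-fold range. The probe was dim, with background-subtracted Cy5 signals from 99.0 to 207.5, yet well above background on 8 of 8 arrays.

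Embryonic Hbb-bh1 did not take part in this pattern. One of its probes had log2 ratios of 0.09, 0.02, 0.32 and 0.23 in WT1 to WT4 and 0.11, -0.09, -0.04 and 0.39 in TG1 to TG4. TG2, the highest lung for the adult globins, was the lowest for Hbb-bh1, and the groups overlapped. Background-subtracted Cy5 signals were 33.5 to 95, so the probe was measured near its lower limit. The other Hbb-bh1 probe was well above background on 0 of 8 arrays, with signals of 6.00 to 16.0, and was not tested. Of the other embryonic chains, Hba-x was well above background on 0 arrays, and Hbb-y had ratios from -0.04 to 0.45.

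Relations between the members were computed for 10 pairs of genes. Hba-a1 and Hbb-b1 put the 7 lungs in the same order, with r = 0.98 and rho = 1.00 (exact permutation p = 0.000198, the smallest that 7 lungs allow, and 0.000397, adjusted p = 0.00198 and 0.00397). Without WT1 and WT3 r was 0.93, and within scan days it was 0.99. Over the 15 pairs of adult globin probes, Hba-a2 included, r ran from 0.77 to 0.99 with a median of 0.94. Hbb-b1 and Alas2 had r = 0.83 and rho = 0.81 (n = 8, exact permutation p = 0.00962 and 0.0218, adjusted p = 0.0481 and 0.109). This passed for r and not for rho, and without TG2 and WT3 r was 0.64, with 0.87 within scan days. Hbb-b1 and Slc4a1 had r = 0.71 and rho = 0.69 (n = 8, exact permutation p = 0.0435 and 0.0694, adjusted p = 0.126 and 0.173). That relation rested on TG2 and WT3, since r was 0.06 without them. For Alas2 and Slc4a1 r was 0.71 and rho 0.76 (n = 8, exact permutation p = 0.0502 and 0.0368, adjusted p = 0.126 and 0.123), and r was 0.79 without TG2 and WT4. With Hbb-bh1 the r of the other genes lay between -0.29 and 0.10. All of these values share the arrays, the normalization and the pool.

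**Figure D3:**
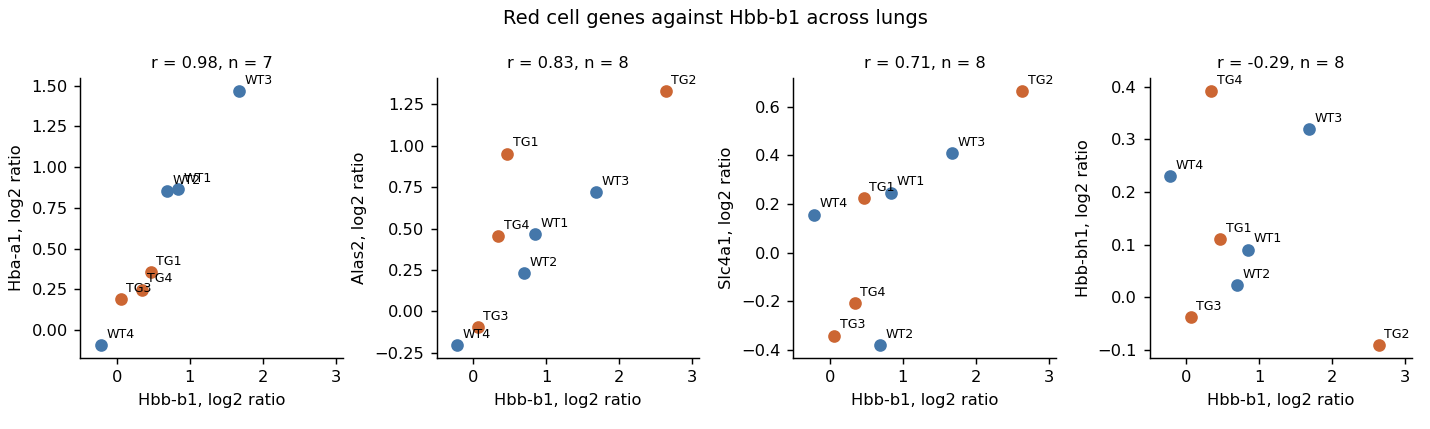
Log2 ratios of Hba-a1, Alas2, Slc4a1 and Hbb-bh1 (y axes) against Hbb-b1 probe 1 (x axis), with a point per lung, wild-type in blue and transgenic in orange. Hba-a1 follows Hbb-b1 over 7 lungs (r = 0.98), Alas2 and Slc4a1 do so more loosely (0.83 and 0.71, with TG2 at the upper right), and Hbb-bh1 does not (-0.29).

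The question of genotype was whether red cell transcripts differ between wild-type and transgenic lungs without treatment. None of the 8 tested probes passed, at an adjusted p or at an unadjusted p under 0.05, in limma, and none did in the methods' t-test either, which called 866 of the 32653 probes before adjustment and 0 after it. Over all tested probes 0% passed after adjustment and 2.09% before it, 1.12% as higher and 0.974% as lower in transgenic lungs. By sign alone 4 of the 8 were higher in transgenic lungs, against 50.4% of all tested probes. In none of the 8 were the groups apart from each other, against 1.98% of all tested probes.

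Hba-a1 was 0.51 lower in the transgenic lungs (95% interval -1.14 to 0.12, SE 0.28, unadjusted p = 0.103 in limma, exact permutation p = 0.257), with 3 transgenic values. This number depends on the flagged spot. With the TG2 spot kept the difference was 0.09 (SE 0.49, unadjusted p = 0.860 in limma). For Hbb-b1 probe 1 the difference was 0.13 (95% interval -1.02 to 1.28, SE 0.52, unadjusted p = 0.813 in limma, exact permutation p = 0.886), and it was 0.03, -0.08 and 0.30 on probes 2 to 4. Without TG2 probe 1 stood at -0.46. An effect of up to 1 unit of log2 in either direction, which is a change of 2-fold, lies inside this interval.

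Alas2 was higher by 0.35 (95% interval -0.26 to 0.97, SE 0.28, unadjusted p = 0.232 in limma, exact permutation p = 0.371). It was higher in the transgenic lung on 3 of 4 slides, and without TG2 the difference was 0.13. Slc4a1 differed by -0.02 (95% interval -0.51 to 0.47, SE 0.22, unadjusted p = 0.922 in limma) and Hbb-bh1 by -0.07 (95% interval -0.35 to 0.20, SE 0.13, unadjusted p = 0.577 in limma). The adjusted p in limma was 1.00 for each tested probe. With 4 lungs against 4 the exact permutation test can reach a p of 0.0286 at the lowest.

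Within scan days the differences of Hbb-b1 went opposite ways. On the first day Hbb-b1 probe 1 was 0.86 lower in the transgenic lungs, and on the second it was 1.11 higher, each from 2 lungs per genotype and with no test. Probes 2 to 4 were lower by 0.95, 0.96 and 0.70 on the first day and higher by 1.01, 0.79 and 0.85 on the second. WT3, high in globin, was on a first-day slide and TG2 on a second-day slide. Slide by slide, the differences of probe 1 were -1.34 and -0.38 on the first-day slides and 1.95 and 0.28 on the second-day slides. Slc4a1 had -0.32 and 0.27, Alas2 0.11 and 0.60, and Hba-a1, without the TG2 spot, -0.86 and -0.19.

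**Figure D4:**
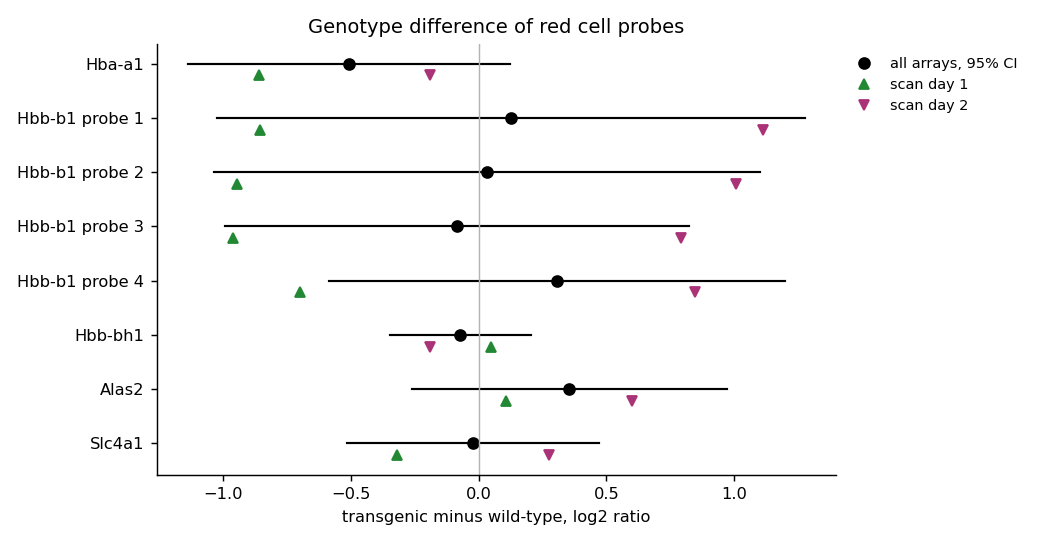
Transgenic minus wild-type difference of the log2 ratio for the 8 tested probes, as limma's estimate over all arrays with its 95% interval (black), within scan day 1 (green triangles up) and within scan day 2 (purple triangles down). All 8 intervals include 0, and for the 4 Hbb-b1 probes the days lie on opposite sides of 0, at -0.86 and 1.11 for probe 1.

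Other genes of red cells were taken from 6 lists, of globin chains, heme synthesis, iron import, the red cell membrane, erythroid transcription factors and reticulocyte enzymes. Of 63 genes 59 were on the array and 53 were tested, the members included. Of these 29 were higher and 24 lower in transgenic lungs, 0 passed the adjusted threshold, and the median difference was 0.02, against 0.0010 over all tested probes. Without the members there were 27 higher and 21 lower of 48. The 1 gene with an unadjusted p under 0.05 and groups apart from each other was Epb4.1, of the membrane skeleton, 1 of 53 where 2.09% of all tested probes had such a p (the methods' t-test gave 3 of 53). On its brightest probe Epb4.1 had 0.16, 0.56, 0.25 and 0.06 in WT1 to WT4 and -0.38, -0.32, -0.18 and -0.01 in TG1 to TG4, a difference of -0.48 (SE 0.13, unadjusted p = 0.00345 in limma). Its other tested probes had differences of -0.42, -0.17 and -0.08 (unadjusted p = 0.0158, 0.332 and 0.513 in limma), and Epb4.1 is also expressed in many cells other than red cells.

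Several genes of late red cell maturation were highest in TG2, as the adult globins were. Ahsp, the chaperone of free alpha chains, had 0.43 in TG2 and -0.46 to -0.17 in the other 7 lungs. Bpgm, the enzyme that makes the red cell's 2,3-bisphosphoglycerate, had 0.45 in TG2 and -0.30 to 0.02 elsewhere. Fech, the last enzyme of heme synthesis, had 0.30 against -0.31 to 0.15. Of the 43 list genes other than members with 8 values, 10 were highest in TG2, which is 23.3%, against 9.16% of all 29502 tested probes with 8 values. WT4, the lung lowest in globin, was highest in 7 of the 43 (16.3% against 7.56% of all probes) and TG1 in 9 (20.9% against 22.7%), so such an excess was not confined to TG2. The excess of TG2 over the next lung was as small as 0.01 in Icam4 and Zfpm1 and as large as 0.60 in Ahsp. Of the transcription factors of the erythroid line only Zfpm1 was highest in TG2. Gata1 was lower in TG2, at -0.19, than in any other lung, and Klf1 had -0.03 there, within its range of -0.35 to 0.12.

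As list means, the heme synthesis genes were highest in TG2 (0.26), TG1 (0.22) and WT3 (0.14) and between -0.06 and -0.02 in the other lungs, with Alas2 in the mean. The other 6 heme synthesis genes had means of 0.09 in TG2, 0.10 in TG1 and 0.04 in WT3, and -0.14 to -0.01 in the rest, so the size and the lead of TG2 came from Alas2. Reticulocyte enzymes were highest in TG2 (0.22) and WT3 (0.19) and lowest in TG3 (-0.04). Membrane genes stayed between 0.05 and 0.18 without that order. Markers of other blood cells had their highest means in other lungs than the globins. Platelet genes, 11 of 11 tested, had their highest means in WT4 (0.94), the lung lowest in globin, and TG1 (0.69). Their lowest mean was in TG2 (0.15), close to those of WT2 (0.16) and TG3 (0.18). The 13 neutrophil genes had means of 0.56 in TG1 and 0.21 in WT4 and of -1.33 to -0.51 in the other lungs. B cell and T cell genes were highest in TG1, at 0.61 and 0.30, with TG2 next at 0.27 and 0.08. All 11 platelet genes and 12 of 13 neutrophil genes were well above background on 8 of 8 arrays.

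With the Hba-a1 ratio, relations to 15 list means were computed over 7 lungs, and none passed after adjustment. Endothelial, monocyte and lung epithelium genes had the strongest, with r = -0.84, -0.79 and 0.83 (exact permutation p = 0.0153, 0.0264 and 0.0206, adjusted p = 0.132 for each). Platelet genes had r = -0.51 and neutrophil genes r = -0.43 (exact permutation p = 0.261 and 0.338, adjusted p = 0.507 for both). With Hbb-b1 in place of Hba-a1, a choice made after the flagged spot was seen, reticulocyte enzymes had r = 0.78 and heme synthesis genes, Alas2 included, r = 0.73 (n = 8, exact permutation p = 0.0187 and 0.0342, adjusted p = 0.256 for both). Without TG2 and WT3 these fell to 0.13 and 0.19. With Hbb-b1 the endothelial, monocyte and lung epithelium genes had r = -0.42, -0.36 and 0.39 (n = 8, exact permutation p = 0.297, 0.389 and 0.342, adjusted p = 0.769 for each). How far blood left in the tissue or the kinds of cells in it account for the globin ratios was not tested.

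**Figure D5:**
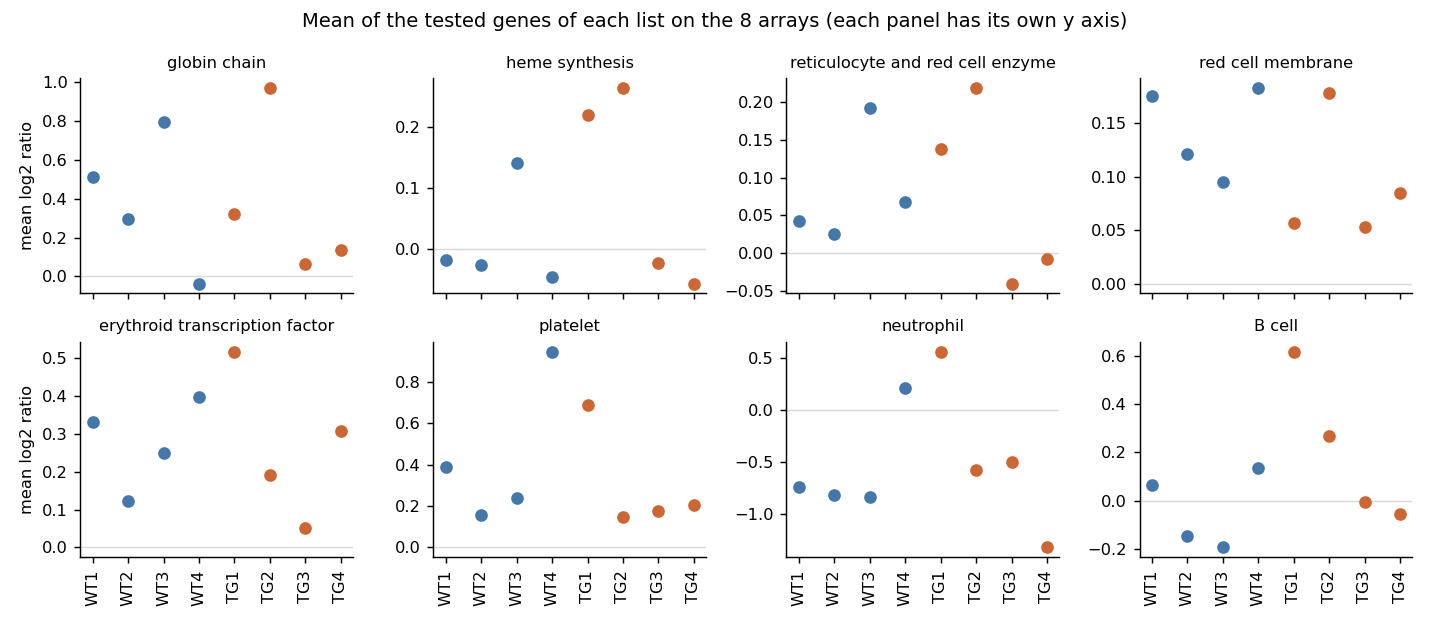
Mean log2 ratio of the tested genes of 8 lists in each lung (x axis), wild-type in blue and transgenic in orange. Each panel has its own y axis. Globin chain, heme synthesis (with Alas2) and reticulocyte enzyme genes are highest in TG2, while platelet genes are highest in WT4 (0.94) and neutrophil genes in TG1 (0.56) and WT4 (0.21).

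The probes most like the mean profile of the 6 tested globin member probes were ranked by r over 8 lungs among 29502 probes. The 10 highest were Aldoart1 (0.95), Ikbkg (0.94), Podn (0.94), Hba-a2 (0.93), Erp44 (0.93), Hebp1 (0.92), Pirt (0.92), Igsf1 (0.92), Epha7 (0.90) and Mtap9 (0.90). Hba-a2 had the widest range of them, with 1.16, 0.44, 1.41 and -0.05 in WT1 to WT4 and 0.88, 1.88, 0.31 and 0.28 in TG1 to TG4, and an SD of 0.66. Hebp1, a heme-binding protein, had an SD of 0.25, with 0.08 in TG2 and -0.57 in WT4. The other 8 had SDs of 0.09 to 0.20, near the 0.18 of a usual probe. Their likeness thus lies in the pattern over lungs and not in the size. These are the highest r of 29502 probes over only 8 lungs. How many unrelated probes would reach such an r was not tested.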

How the data were processed

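The authors deposited Agilent Feature Extraction output (version 10.10.1.1 per the file headers, 11.0.1.1 per the labels) with median signal intensity and background per spot and channel, and log10 ratios of processed Cy5 over Cy3, and a matrix of log2 ratios that follow the same processed signals. Here the median intensities were background-corrected in R 4.3.3 with limma 3.58.1 (normexp on unflagged spots, offset 50), flagged and control spots were left out, and log2 ratios were loess-normalized within arrays and averaged per probe. A probe was tested when well above background in Cy5 on at least 4 arrays, with 2 values per genotype. Transgenic was compared with wild-type by limma's moderated test with Benjamini-Hochberg adjustment over 32653 probes, and single values by exact two-sided permutation. The number of arrays limits the precision. Normalized channel intensities come from the same loess-normalized values after a further step between arrays (Aquantile in limma). It gave the mean of the 2 channels the same distribution on every array, and the log2 ratios that were tested did not have it. Motif shares were counted over 32851 RefSeq windows. The fits were tested on simulated data.

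The members and gene lists were chosen with earlier results of these data known. Genes were named by these rules: every member probe, list genes with an unadjusted p under 0.05, the 10 probes most like the globins, and Scgb3a2. Ahsp, Bpgm, Fech, Icam4, Zfpm1, Gata1, Klf1, Hba-x, Hbb-y and Hebp1 were picked out after their values were seen. So were Aqp9, Sftpc, Scgb1a1, Fth1, Ager and Ftl1. Of several probes the brightest stands for the gene unless others are named. Replicates were separate mice, and the 8 matrix columns each had their sample. Alternatives changed the background correction, normalization, filter, blocking and test, used the authors' matrix or the lung channel alone, or left out each lung in turn. The lung channel alone, as an alternative run, was Cy5 quantile-normalized between arrays, which differs from the normalized Cy5 intensity of the Results. Python 3.11.15 and matplotlib 3.10.9 drew the figures.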

Additional observations from a re-analysis of the deposited data

Results flagged for a closer look

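Among the transgenic lungs TG2 lay apart from the other three on 3 Hbb-b1 probes. Its gap to the nearest lung was 0.842 of the whole range on probe 1, 0.967 on probe 2 and 0.916 on probe 3. Over 14 groups of 4 lungs that were examined this was found 3 times, all for probes of the same transcript, and chance gives it in about 1 of 20 groups. On the dimmest Hbb-b1 probe and for Alas2, Slc4a1 and Hbb-bh1 no lung stood apart in this way.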

How the results depend on the processing

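No tested member probe and no red cell list gene passed the adjusted threshold under any alternative run, and Alas2 (0.13 to 0.61) and Hbb-bh1 (-0.19 to -0.01) kept their direction in all. The Hba-a1 difference turned from -0.51 to 0.088 with flagged spots kept and to 0.11 in the authors' matrix, which hold the TG2 spot, and its unadjusted p in limma was 0.0349 with median-centring, 0.0416 with scan day as a block and 0.00141 without WT4 (-0.80), as that of Alas2 was 0.0308 without TG3 (0.61), with an adjusted p of 1.00 in each. From the lung channel alone the Hbb-b1 differences were -0.0047, -0.020 and 0.0080 on probes 1 to 3. With median-centring probe 2 was at -0.021, and with normexp fitted on all spots probe 3 was at 0.035. Leaving out each lung in turn gave -0.46 to 0.44 for Hbb-b1 probe 1, where the sign turned without WT4 (-0.20) or TG2, -0.50 to 0.37 for probe 2, -0.50 to 0.25 for probe 3, -0.026 to 0.77 for probe 4, -0.80 to -0.28 for Hba-a1 and -0.22 to 0.12 for Slc4a1. The cause was not tested. In the lung channel alone, quantile-normalized, the SD of Hbb-b1 was 0.47 and that of Hba-a1 0.26, against 0.93 and 0.53 for the ratios. In the differently scaled Cy5 intensity of the Results these SDs were 0.43 and 0.30. The SD of Hbb-bh1 was 0.38 with the Agilent processed signals and in the authors' matrix, against 0.17.

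The r of Hba-a1 and Hbb-b1 was 0.73 in the lung channel alone and no longer passed, and 0.95 to 0.99 without each lung. That of Hbb-b1 and Alas2 no longer passed with median-centring (0.78) or in the lung channel alone (0.86), and ran from 0.66 to 0.96 without each lung, passing in 1 of 8 such sets, which have fewer lungs. Without WT4, Hbb-b1 and Slc4a1 (0.83) and Alas2 and Slc4a1 (0.88) passed, and over each lung left out these r were 0.47 to 0.83 and 0.51 to 0.88. Hba-a1 and Slc4a1 ran from -0.071 to 0.63. Relations with Hbb-bh1 changed sign, for Hba-a1 to -0.02 with median-centring, -0.16 with processed signals, -0.58 in the lung channel, -0.39 with flagged spots kept and -0.53 in the matrix (-0.40 to 0.36 without each lung), and for Slc4a1 to 0.25 with normexp on all spots, 0.059 with median-centring and 0.11 with processed signals or the matrix (-0.30 to 0.40 without each lung). Without each lung Hbb-b1 and Alas2 had -0.55 to 0.24 and -0.42 to 0.28 with Hbb-bh1. With Hbb-b1 in place of Hba-a1, chosen after seeing the data, r with clearance genes was 0.21 and with B cell genes 0.014, against -0.02 and -0.45.

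Same-numbered lungs deviated together with r of 0.32, 0.25, -0.08 and -0.21, so the replicate number is no pairing, and the first 2 of these pairs shared a slide. The 4 pairs on a slide had 0.32, 0.25, 0.30 and 0.07. Blocking on that number (replicate block), the Hba-a1 difference was -0.48, that of Hbb-b1 probe 1 0.13 and that of Alas2 0.35 (unadjusted p = 0.113, 0.787 and 0.212 in limma), with the slide as a block the same (0.0857, 0.765 and 0.0981), and 0 list genes passed. Dim probes (Hbb-bh1, Slc4a1) are limited by signal near background.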
